A study of Mus musculus with 12 samples.

Results

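The kidneys of 4 mice that lack both alleles of Mut, the gene of methylmalonyl-CoA mutase, were compared with those of 4 heterozygous mice, which keep 1 intact allele. These 8 arrays were selected by their titles out of 12 in the series, and the remaining 4 are from wild-type mice. All animals were female C57BL/6 mice that had eaten a high protein diet for 2 months, and each array measured total RNA of whole kidney from 1 mouse. The mutants are labelled Mut -/- ;TgINS-Alb-Mut: they lack both Mut alleles and carry a transgene of the gene under Alb, the albumin promoter, which is active in hepatocytes. The heterozygotes are labelled Mut +/- and the wild type Mut +/+, and the transgene is listed for the mutants only. Loss of both Mut alleles and presence of the transgene therefore cannot be told apart here. The series was made to look for changes in the kidney that accompany the renal disease of methylmalonic acidemia. Against heterozygotes the question is narrower: what differs when the control has itself lost 1 allele and shares the diet.

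Mmut, the current symbol of Mut, encodes a mitochondrial enzyme that uses a cobalamin cofactor to turn methylmalonyl-CoA into succinyl-CoA. This is the last step by which propionate from valine, isoleucine, methionine, threonine and odd-chain fatty acids enters the tricarboxylic acid cycle. When it fails, methylmalonic acid accumulates, and the kidney, whose proximal tubules are rich in mitochondria, is one of the organs affected in patients. A high protein diet raises the supply of these precursors. Heterozygous carriers are healthy in humans and commonly serve as controls in mice.

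Levels are log2 signals normalized across arrays by RMA, so a difference of 1 is a 2-fold change. A gene was called when limma's test over all 12 arrays gave a Benjamini-Hochberg adjusted p under 0.05 over 19934 genes. Replicates carry their label numbers, for example mutant 1. The limma p-values set a difference against the spread between samples, estimated over all 3 groups and moderated across genes. The labels name separate samples but not litters or cages, so these were not accounted for.

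Mmut itself separated the 3 groups. It read 8.47, 8.33, 8.21 and 8.42 in mutants 1 to 4, against 9.93, 9.90, 9.87 and 9.97 in heterozygotes 1 to 4 and 10.47, 10.49, 10.56 and 10.60 in wild type 1 to 4. No 2 groups overlapped, and heterozygotes lay between the others. The fall from heterozygote to mutant was 2.95-fold (log2 fold change -1.56, SE 0.06, limma adjusted p = 1.14e-08), with an exact two-sided permutation p of 0.0286, the smallest that 70 regroupings of 4 and 4 arrays allow. Heterozygotes were 1.53-fold below wild type (log2 fold change -0.62, limma adjusted p = 0.000801). The labels do not say which part of the gene the mutant allele lacks, and the probe set might also read transgene RNA, so what the remaining mutant signal reads was not tested. On chromosome 17, where the gene lies, 20 of 936 measured genes were called, no larger a share than over all genes (506 of 19934, 2.54%). Among the 40 nearest to Mmut 2 were called: Adgrf1, an adhesion G protein-coupled receptor (0.82 higher, adjusted p = 0.00434), and Mep1a, a brush border metalloprotease (log2 fold change -0.35, adjusted p = 0.0309).

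Among all genes 506 were called between mutants and heterozygotes (2.54%), of which 214 were higher in mutants (1.07%) and 292 lower (1.46%). Most differences were small: the median fold of the called genes was 1.293, 99 reached 1.5-fold and 23 reached 2-fold, 9 upward and 14 downward. The median difference over all genes was -0.01. The 4 mutant arrays lay wholly apart from the 4 heterozygote arrays in 1932 genes (9.69%), and 491 of the called genes were among them. For scale, the same fit called 1925 genes between mutants and wild type (9.66%) and 27 between heterozygotes and wild type (0.135%). The count against heterozygotes was lower without any 1 heterozygote array, at 235, 308, 248 and 229 without heterozygote 1, 2, 3 and 4, and 191 when only the 8 arrays of both groups entered the fit. The excess of lower over higher genes was not kept throughout: 121 higher and 114 lower were called without heterozygote 1, and 100 and 91 with the 8 arrays only.

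**Figure D1:**
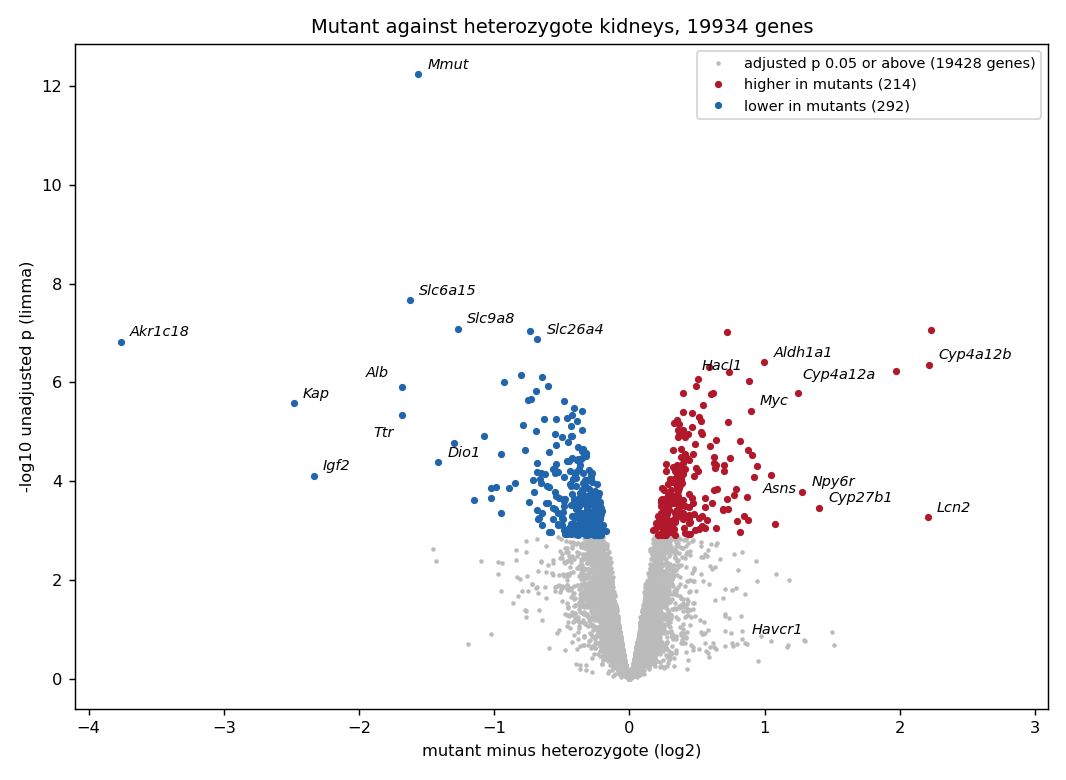
Each point is 1 of 19934 genes, with the mutant minus heterozygote difference in log2 on the horizontal axis and -log10 of the unadjusted limma p on the vertical axis. The 214 genes called higher are red, the 292 called lower are blue, Mmut has the smallest p, and Akr1c18 has the largest fall.

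Kidney identity was clear on all arrays: uromodulin of the thick ascending limb (Umod) read 13.17 to 13.34 and the phosphate transporter Slc34a1 read 13.17 to 13.43. A pair of mutant arrays stood apart by markers of other cells. Mutant 3 read 8.76 as the mean of 13 adrenal and ovary steroid cell markers, against 5.97 to 6.18 on the other 11 arrays. Its steroidogenic genes Star and Cyp11b1 read 11.99 and 12.65, against at most 6.91 and 6.58 elsewhere. Mutant 2 read 6.95 as the mean of 11 neutrophil markers, against 5.71 to 5.94 elsewhere, with S100a8 at 8.57 against at most 5.57. Neither list had a called member. Without both arrays 356 genes were called, 183 higher and 173 lower, so that higher genes outnumbered lower ones, against 214 and 292 with them.

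Among the named genes the largest falls were those of Akr1c18, Kap and Igf2, all on the list of hormone-responsive and steroid-handling genes. That list was written with earlier results of these data known, and no hormone was measured. Alb and Ttr, next in size (log2 fold change -1.68 for each), are not on it. Of 29 measured hormone-responsive and steroid-handling genes 7 were called lower and 3 higher, with a median difference of -0.17. Over all genes 1.46% were called lower and 1.07% higher. Akr1c18, the 20-alpha-hydroxysteroid dehydrogenase that inactivates progesterone, read 6.36, 6.60, 5.73 and 7.29 in mutants 1 to 4 against 11.34, 9.82, 9.34 and 10.53 in heterozygotes. Every mutant lay more than 2 units below every heterozygote, a 13.6-fold difference (SE 0.38 on the log2 scale, limma adjusted p = 0.000372). Kap, the androgen-regulated kidney protein of proximal tubules, read 11.44, 9.87, 9.75 and 11.42 against 13.27, 12.93, 12.98 and 13.21 (5.58-fold lower, adjusted p = 0.00174). Igf2, the insulin-like growth factor 2 gene, read 9.97, 7.85, 7.95 and 10.08 against 11.40, 11.45, 11.17 and 11.17 (5.04-fold lower, adjusted p = 0.0105). For both genes the mutants formed 2 pairs, with replicates 2 and 3 the lowest. These are the arrays with neutrophil and adrenal markers; without them the falls were 1.67 for Kap and 1.27 for Igf2 on the log2 scale, both called, against log2 fold changes of -2.48 and -2.33 with them.

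Dio1, the deiodinase that makes active thyroid hormone, read 7.70, 6.96, 6.29 and 7.63 in mutants against 8.74, 8.57, 8.36 and 8.57 (2.67-fold lower, adjusted p = 0.00801). Receptor genes of the same list fell less: Esr1, estrogen receptor alpha, was 1.33-fold lower (adjusted p = 0.0198), Ghr, the growth hormone receptor, 1.31-fold (adjusted p = 0.0411) and Thrb, a thyroid hormone receptor, 1.23-fold (adjusted p = 0.0153). The members that rose were all cytochromes P450. Cyp4a12b, an omega-hydroxylase of fatty acids and arachidonate, read 9.65, 10.10, 9.88 and 9.07 in mutants against 7.08, 7.01, 7.88 and 7.86 in heterozygotes (4.65-fold higher, adjusted p = 0.000873). Its near-identical neighbour Cyp4a12a read 9.25, 9.74, 9.62 and 8.70 against 6.95, 7.13, 7.51 and 7.83 (3.93-fold higher, adjusted p = 0.000944). Heterozygotes 3 and 4 exceeded heterozygotes 1 and 2 for both genes, and every mutant lay above all 4 heterozygotes. Probes may be shared between such copies, so the pair should be read as 1 signal. The list's lower count was 4 without heterozygote 1 and its higher count was 3 or 4 without any 1 array.

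**Figure D2:**
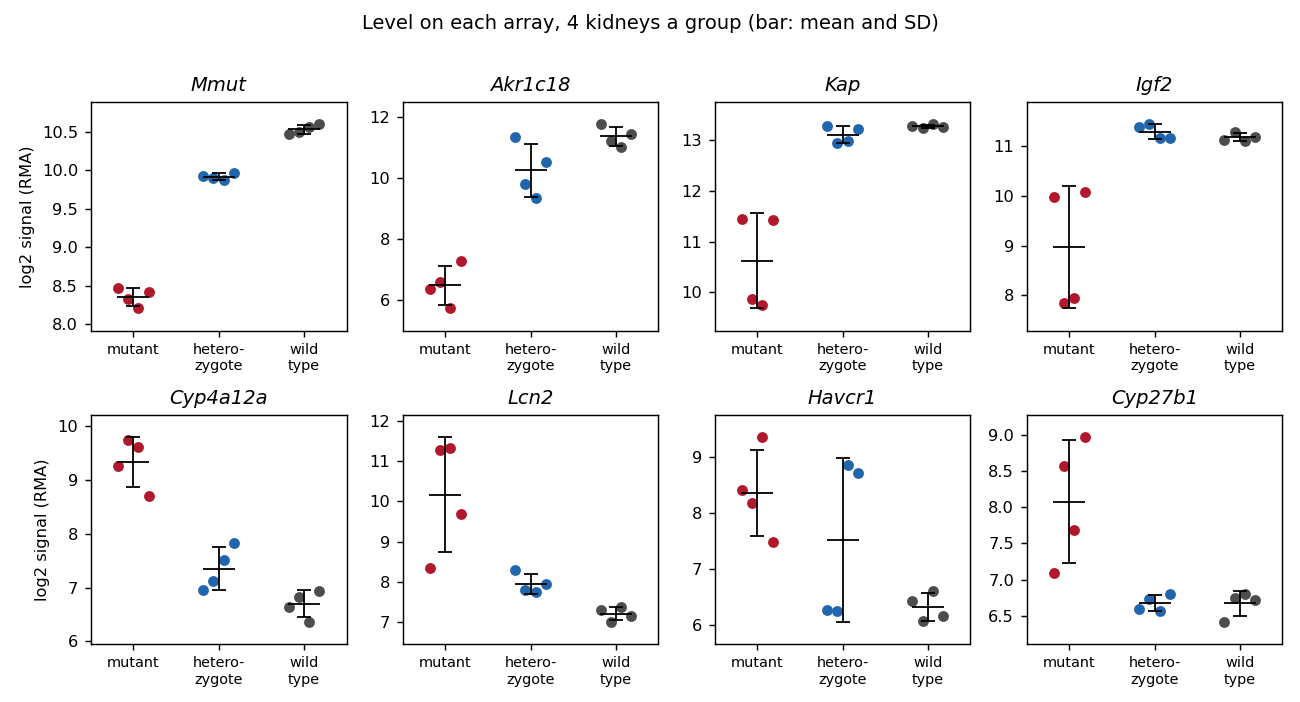
Points are the log2 signals of 8 genes on each of 12 arrays, 4 per group, with the group mean and SD as bars; each panel has its own vertical scale, which does not start at 0. Mmut, Akr1c18, Kap and Igf2 were lower on all 4 mutant arrays than on any heterozygote array, Cyp4a12a, Lcn2 and Cyp27b1 were higher, and for Havcr1 the groups overlapped.

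Fatty acid oxidation genes and targets of PPAR-alpha, the nuclear receptor that switches on fatty acid use, were called higher in 9 of 37 cases and lower in none. Their median difference was 0.18, against -0.01 over all genes, and 31 of 37 lay above 0. The share called higher over all genes was 1.07%. Besides the Cyp4a12 pair the called members were Cyp4a14, Acaa2, Acot1, Acot2, Mogat1, Angptl4 and Vnn1. Angptl4, a secreted inhibitor of lipoprotein lipase, read 8.82, 9.84, 9.93 and 8.81 against 7.99, 8.19, 8.47 and 8.44 (2.11-fold higher, adjusted p = 0.0368). Mutants 2 and 3 were again the extremes, and the call ended without any 1 of 8 arrays (adjusted p up to 0.11) and without both of these mutants (log2 fold change 0.55, adjusted p = 0.149). Acot1, a cytosolic acyl-CoA thioesterase, was 1.83-fold higher (adjusted p = 0.0191), a call that ended without heterozygote 1, 2 or 4 (adjusted p up to 0.0561).

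Acaa2, the mitochondrial thiolase of beta-oxidation, was 1.33-fold higher and did not overlap (mutants 12.15 to 12.39, heterozygotes 11.73 to 11.89; adjusted p = 0.00649). Cyp4a14, another fatty acid omega-hydroxylase, read 12.90 to 13.51 in mutants and 12.39 to 12.69 in heterozygotes (1.55-fold higher, adjusted p = 0.00911). Other members did not pass the test: Pdk4, which holds back pyruvate oxidation, was higher by 1.09, more than most called members, but its arrays overlapped (adjusted p = 0.128), while Cpt1a, the carnitine gate to mitochondria, differed by -0.03. The list counted 5 higher genes without heterozygote 1 or 4, and 7 without mutants 2 and 3. Hacl1, which shortens branched and hydroxylated fatty acids in peroxisomes and was outside the list, read 11.08, 11.44, 11.45 and 11.64 against 10.50, 10.37, 10.66 and 10.55 (1.84-fold higher, adjusted p = 0.00109).

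Of 28 genes of cholesterol and fatty acid synthesis 2 fell and none rose (1.46% and 1.07% of all genes), with a median of 0.02. The count was 2 higher without mutant 2, 3 lower without mutant 3 or 4, and 3 in each direction without mutants 2 and 3. Scd1, the desaturase that makes monounsaturated fatty acids, read 11.46, 11.78, 10.97 and 12.03 in mutants against 12.56, 12.72, 12.59 and 12.67 in heterozygotes, which were tightly grouped (2.1-fold lower, adjusted p = 0.00372). Elovl6, an elongase that supplies Scd1, was 1.51-fold lower (mutants 9.89 to 10.26, heterozygotes 10.51 to 10.86; adjusted p = 0.00622).

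Around the mutase itself, 5 of 34 genes of propionate, cobalamin and branched-chain catabolism fell and none rose, with a median difference of -0.10. Over all genes 1.46% were called lower. One of the 5 is Mmut, whose fall is set by the genotype. The others act in branched-chain amino acid breakdown rather than on propionate. Ivd, isovaleryl-CoA dehydrogenase of leucine breakdown, read 10.94, 10.91, 10.88 and 10.95 in mutants against 11.31, 11.10, 11.34 and 11.30 (1.27-fold lower, adjusted p = 0.00713). Mccc1, a subunit of the next enzyme in that pathway, was 1.4-fold lower (adjusted p = 0.02; not called without heterozygote 1, 2 or 3, adjusted p up to 0.068; 0.0874 without mutants 2 and 3). Auh, the hydratase that follows, was 1.18-fold lower (adjusted p = 0.0364), and Dbt, of the branched-chain ketoacid dehydrogenase, 1.2-fold lower (adjusted p = 0.0219; not called without any 1 of 4 arrays, adjusted p up to 0.0716; 0.0968 without mutants 2 and 3).

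Genes of the steps next to Mmut did not pass the test. The propionyl-CoA carboxylase subunit genes Pcca and Pccb differed by -0.17 (adjusted p = 0.089) and 0.01 (adjusted p = 0.971), and Mmaa, which loads cobalamin onto the mutase, by -0.29 (adjusted p = 0.163). The pathway's lower count was 2 without heterozygote 2 or 3, at most 6 without any 1 array, and without mutants 2 and 3 the count was 2 lower and 1 higher.

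Of the mitochondrial energy genes, no member of 20 in the tricarboxylic acid cycle and none of 35 complex I genes was called, at medians of -0.03 and 0.02. Sucla2, of succinyl-CoA synthetase, which acts on the product of the mutase, had the smallest p of the cycle (log2 fold change -0.14, adjusted p = 0.206). The complex I gene with the smallest p was Ndufa6, at 11.23 to 11.44 in mutants and 11.11 to 11.17 in heterozygotes (log2 fold change 0.17, adjusted p = 0.113). In complexes III to V 2 of 34 genes were higher, by small amounts, against 1.07% of all genes. These were Cox4i1 of cytochrome oxidase (1.19-fold, adjusted p = 0.027) and Atp5o of the ATP synthase (1.17-fold, adjusted p = 0.0347). Cox4i1 lost its call when any 1 of 4 arrays was dropped (adjusted p up to 0.0894), and Atp5o when any 1 of 9 was (up to 0.107). Transcript levels of a whole kidney say nothing of enzyme activity, which these arrays did not measure.

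Genes of the integrated stress response and ER stress were called higher in 6 of 37 cases and lower in none, with a median of 0.16. Over all genes 1.07% were called higher. In this response ATF4 switches on amino acid synthesis, import and tRNA charging when translation initiation is slowed. Asns, asparagine synthetase, read 9.17, 8.73, 9.18 and 9.65 in mutants against 8.31, 8.46, 7.91 and 8.37 (1.89-fold higher, adjusted p = 0.0108). Psat1 of serine synthesis read 8.47, 8.12, 9.35 and 8.23 against 7.72, 7.81, 7.55 and 7.59 (1.83-fold higher, adjusted p = 0.0328). Mutant 3 was highest, and dropping any 1 of 8 arrays took Psat1 past the threshold (adjusted p up to 0.092). Mthfd2, the mitochondrial folate enzyme, read 8.39, 7.75, 8.06 and 8.47 against 7.42, 7.55, 7.64 and 7.54 (1.54-fold higher, adjusted p = 0.0157; not called without heterozygote 1, adjusted p = 0.0551).

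The remaining called members were Eif4ebp1, a brake on cap-dependent translation (1.35-fold higher, adjusted p = 0.00372), the glycyl-tRNA synthetase gene Gars (1.29-fold, adjusted p = 0.0163) and the transcription factor gene Atf5 (1.28-fold, adjusted p = 0.00848). Atf4 itself was higher by 0.24 without overlap but was not called (adjusted p = 0.0674). Of the ER stress genes of the list, Ddit3, which encodes CHOP, differed by 0.00 and the chaperone gene Hspa5 by -0.05. Across the whole list 29 of 37 members lay above 0, and 14 had all mutant arrays above all heterozygote arrays. The list's count was 4 without heterozygote 1, 3 or 4, and 9 without mutant 2, mutant 3 or both.

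The ATF4 response works through a composite element, TGATGNAA, in promoters of its targets. In RefSeq promoters (GRCm38.p6, 300 bases from 250 before to 50 after an annotated start), searched on both strands (the other strand reads TTNCATCA), the element occurred in 11 of 31 listed genes with a sequence (35.5%) and in 2 of the 5 called ones that have one (40.0%). Among all 15611 tested genes with a sequence 565 held it (3.6%). The list was built from known targets of the response, so its share is a property of the list. The matches in the 2 called genes are shown with the element in capitals, 5′ to 3′ on the gene's strand, Asns from chr6:7693205-7693252 (minus strand) and Gars from chr6:55037951-55037998 (plus strand).
Asns: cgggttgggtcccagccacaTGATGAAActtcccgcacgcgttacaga
Gars: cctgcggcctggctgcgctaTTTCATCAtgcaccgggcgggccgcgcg
The element begins 23 bases before the start of Asns and 30 before that of Gars, in opposite orientations relative to the gene. No match was found in the windows of Atf5, Mthfd2 and Psat1.

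The broadest change by count was in the protein synthesis machinery. Of 54 cytosolic ribosomal protein genes, a family gathered after its values had been seen, 41 were called higher and none lower, with a median difference of 0.35. The share called higher over all genes was 1.07%. All 54 differences were above 0, and in 48 genes the 4 mutant arrays lay above the 4 heterozygote arrays, as in 806 of all 19934 genes. The family's mean level was 11.13, 11.09, 11.15 and 11.02 in mutants 1 to 4, 10.81, 10.71, 10.77 and 10.77 in heterozygotes and 10.73, 10.72, 10.63 and 10.61 in wild type, so mutants and heterozygotes did not overlap. Rps12, of the small subunit, read 10.88, 10.77, 10.92 and 10.65 against 10.28, 10.08, 10.21 and 10.18 (1.53-fold higher, adjusted p = 0.00133). Rpsa, the laminin-receptor protein of the small subunit, was 1.5-fold higher (adjusted p = 0.000901), and Rps3a1 had the largest difference of the family, 0.70 (SE 0.12, adjusted p = 0.00848).

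At the other end Rps6, the target of S6 kinase, read 13.25 to 13.34 against 13.10 to 13.17 (log2 fold change 0.16, adjusted p = 0.0687), and Rpl29 overlapped between groups (log2 fold change 0.06). These genes have many processed pseudogenes that array probes may also read, so single members are uncertain. The count was 31 without heterozygote 2, 3 or 4, at most 40 without any 1 array, and 27 without mutants 2 and 3.

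**Figure D3:**
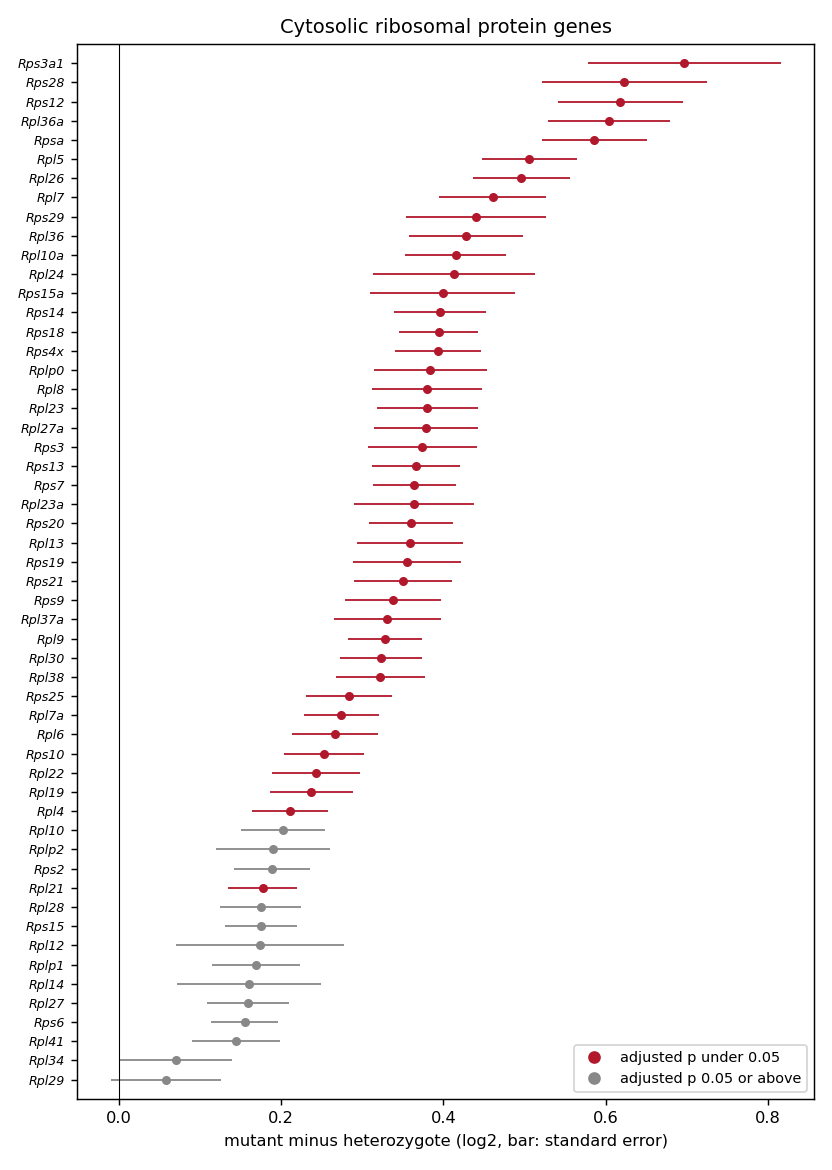
The mutant minus heterozygote difference in log2 is plotted for each of 54 cytosolic ribosomal protein genes, with its standard error as the bar. All 54 points lie above 0, from Rpl29 at 0.06 to Rps3a1 at 0.70; the 41 called genes are red.

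Ribosomal protein mRNAs are known for a tract of pyrimidines at their 5′ end, through which nutrient signals set their translation. Within 25 bases either side of the RefSeq start, an unbroken run of at least 8 C or T on the gene's strand occurred in 19 of 43 ribosomal protein genes with a sequence (44.2%). By call the shares were 14 of 32 called (43.8%) and 5 of 11 not called (45.5%), against 3476 of 15611 tested genes (22.3%). Annotated starts can miss the true start, and a gene without a run in this window, such as Rps3a1, may have one elsewhere. Windows of 3 called genes and 2 that were not called are set side by side, with runs in capitals: Rps12 (chr10:23787185-23787234, minus), Rps18 (chr17:33955641-33955690, minus) and Rpl27a (chr7:109519170-109519219, plus) were called, while Rpl28 (chr7:4792940-4792989, plus) and Rps6 (chr4:86857343-86857392, minus) were not.
Rps12: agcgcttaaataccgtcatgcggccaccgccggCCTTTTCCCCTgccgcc
Rps18: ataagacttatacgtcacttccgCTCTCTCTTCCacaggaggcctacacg
Rpl27a: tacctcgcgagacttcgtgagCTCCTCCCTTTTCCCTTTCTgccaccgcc
Rpl28: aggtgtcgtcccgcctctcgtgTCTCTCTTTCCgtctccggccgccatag
Rps6: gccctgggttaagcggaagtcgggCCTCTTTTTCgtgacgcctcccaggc
Such runs thus occurred at like shares in called and uncalled members.

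Related families moved by smaller counts, against 1.07% of all genes called higher and 1.46% lower. Among 24 translation factors and other genes with this kind of mRNA start, also listed after values had been seen, 6 were higher and none lower (median 0.15), among them the elongation factor gene Eef1b2 (1.29-fold, adjusted p = 0.0135) and Tpt1, the translationally controlled tumor protein (1.18-fold, adjusted p = 0.0149). That count was 2 without heterozygote 1 or 4, and 0 without mutants 2 and 3. Of 56 small nucleolar RNAs, which guide modification of ribosomal RNA and were gathered in the same way, 6 were higher and none lower (median 0.14; 3 higher without heterozygote 4). Myc, a transcription factor that drives ribosome production, read 8.71, 8.01, 8.23 and 8.33 in mutants against 7.35, 7.38, 7.57 and 7.38 (1.86-fold higher, adjusted p = 0.00221). It was the riser among 26 immediate early genes, of which Egr1 fell (1.51-fold, adjusted p = 0.0464; not called without any 1 of 10 arrays, adjusted p up to 0.126; 0.0736 without mutants 2 and 3).

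Injury genes differed less cleanly between mutants and heterozygotes. Of 33 tubular injury and repair genes 2 were higher and none lower (1.07% and 1.46% of all genes), with a median of 0.19 and 27 above 0. The count was 6 higher without mutant 1 and 0 without heterozygote 3 or 4, and without mutants 2 and 3 the count was 0 higher and 1 lower. Lcn2, which encodes the injury marker NGAL, read 8.35, 11.29, 11.33 and 9.69 in mutants against 8.31, 7.81, 7.76 and 7.95 in heterozygotes and 7.30, 7.01, 7.38 and 7.16 in wild type. Mutant 1 barely exceeded the highest heterozygote, while mutants 2 and 3 were about 3 units above it. Mutant 2 is the array with neutrophil markers and mutant 3 the one with adrenal markers. The part of such cells in the Lcn2 levels was not tested. Lcn2 was 4.61-fold higher in mutants (SE 0.49, limma adjusted p = 0.031; exact permutation p = 0.0286, two-sided). The limma call ended without any 1 of 7 arrays (adjusted p up to 0.0819), and without mutants 2 and 3, where the difference was 1.06 (adjusted p = 0.0716).

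Havcr1, which encodes KIM-1 of injured proximal tubules, did not separate the groups. It read 8.41, 8.18, 9.35 and 7.47 in mutants and 6.25, 6.25, 8.86 and 8.71 in heterozygotes, against 6.06 to 6.60 in wild type. Heterozygotes 3 and 4 thus lay among the mutants and heterozygotes 1 and 2 among the wild type. The difference between mutants and heterozygotes was 0.84 (SE 0.56, limma adjusted p = 0.549; exact permutation p = 0.343, two-sided). Heterozygotes 3 and 4 also had the higher B and plasma cell marker means, 7.28 and 6.97, against 6.38 and 6.43 in heterozygotes 1 and 2; mutants read 6.98, 6.34, 6.34 and 6.98. The part of such cells in the Havcr1 levels was not tested. S100a6, a calcium-binding protein of regenerating tubules, was 1.48-fold higher in mutants (7.78 to 8.19 against 7.09 to 7.58; adjusted p = 0.0191; not called without heterozygote 3 or 4, adjusted p up to 0.0575; 0.0801 without mutants 2 and 3). Krt20 and Timp1 were high on single arrays, at 8.07 on mutant 3 and 7.78 on mutant 2, against 5.71 to 6.60 and 5.49 to 6.70 elsewhere, and neither was called.

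Inflammation and scarring lists had few calls in number, at shares from 0% to 7.14% of a list, against 2.54% of all genes. None of 34 chemokine, cytokine and adhesion genes was called (at most 1 in each direction without any 1 array), and 2 of 28 complement and acute phase genes were higher, Lcn2 and Serpina3n, a protease inhibitor (mutants 8.51, 9.04, 9.08 and 8.40, heterozygotes 7.84, 7.26, 8.14 and 7.60; 2.07-fold higher, adjusted p = 0.0104; 0.0681 without mutants 2 and 3). Of 33 interferon response genes 2 were lower and none higher, and 30 of 33 lay below 0 (median -0.16, against -0.01 over all genes). Gbp3, a guanylate-binding protein, was 1.52-fold lower (adjusted p = 0.0211; not called without heterozygote 1 or 3, adjusted p up to 0.0651), and Ifih1, the sensor MDA5, 1.29-fold lower (adjusted p = 0.0175; not called without heterozygote 1, 3 or 4, adjusted p up to 0.061). The lower count was 0 without heterozygote 1 or 3 and 5 without mutant 2 or 4. Without mutants 2 and 3 another member was called lower, while Gbp3 and Ifih1 were not (adjusted p = 0.0764 and 0.0681). Of 35 matrix and fibrosis genes only Mmp7, a protease of injured tubule epithelium, was higher (1.61-fold, adjusted p = 0.0252; not called without any 1 of 4 arrays, adjusted p up to 0.0789). That list's count was 6 higher without mutant 1, 3 lower without mutant 2 or 4, and 1 higher and 2 lower without mutants 2 and 3. No gene of 37 in the cell cycle or 18 in the circadian clock was called, and Gadd45a, a growth arrest gene, was the 1 member of 20 p53 targets that rose (1.4-fold, adjusted p = 0.00494).

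Endocrine and mineral genes of the kidney moved in both directions: 2 of 23 were higher and 2 lower (median -0.15). Over all genes 1.07% were higher and 1.46% lower. Cyp27b1, the hydroxylase that makes active vitamin D, read 7.09, 8.57, 7.68 and 8.96 in mutants against 6.59, 6.73, 6.57 and 6.80 (2.64-fold higher, adjusted p = 0.0241). All mutants exceeded all heterozygotes, yet their spread was wide, and the call ended without mutant 2 or any 1 heterozygote (adjusted p up to 0.0693) and without mutants 2 and 3 (0.0701). S100g, the vitamin D-dependent calcium carrier calbindin-D9k, read 11.76, 11.09, 11.27 and 11.54 against 10.78, 10.38, 10.71 and 10.70 (1.71-fold higher, adjusted p = 0.0181, or 0.0537 without heterozygote 2). Wild type read 11.13, 10.77, 11.44 and 11.03 for S100g, among the mutants. The gene was not called between mutants and wild type (log2 fold change 0.32, limma adjusted p = 0.213). Slc34a2, a phosphate transporter outside the list, was 1.83-fold higher (7.77 to 8.53 against 7.07 to 7.42; adjusted p = 0.00586). The lower members were the brush border peptidase gene Mme (1.39-fold, adjusted p = 0.0196) and Cubn, the endocytic receptor cubilin (1.21-fold, adjusted p = 0.0385). Those calls ended without heterozygote 1 or 4 for Mme (adjusted p up to 0.0634) and without any 1 of 9 arrays for Cubn (up to 0.11; 0.061 without mutants 2 and 3). Both counts fell to 0 in turn, the higher one without heterozygote 2 and the lower one without heterozygote 1 or 4.

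Transporters and antioxidant genes showed scattered changes, to be set beside 1.07% of all genes called higher and 1.46% lower. Of 26 organic anion and cation transporters 3 were lower and 1 higher (none lower without heterozygote 3 or 4). Slc22a4, a carnitine and ergothioneine carrier, was 1.53-fold lower (adjusted p = 0.0213; not called without heterozygote 1, 3 or 4, adjusted p up to 0.0667; 0.0625 without mutants 2 and 3), and Abcc2, an apical export pump, 1.3-fold higher (adjusted p = 0.03; not called without any 1 of 5 arrays, adjusted p up to 0.0768; 0.0717 without mutants 2 and 3). Among 24 amino acid transporters Cltrn, their apical chaperone, fell 1.29-fold (adjusted p = 0.0197; not called without heterozygote 1, 3 or 4, up to 0.0688; 0.0841 without mutants 2 and 3) and Slc6a18 1.24-fold (adjusted p = 0.0384; not called without any 1 of 9 arrays, up to 0.102; 0.075 without mutants 2 and 3). Of 28 NRF2 and glutathione genes 2 were higher and 1 lower (5 higher without mutant 4). Mgst1, a microsomal glutathione transferase, was 1.73-fold higher (10.14 to 10.92 against 9.44 to 9.95; adjusted p = 0.0153), and Gstm2, a cytosolic one, 1.18-fold (adjusted p = 0.0335; not called without any 1 of 6 arrays, up to 0.107). Neither was called without mutants 2 and 3 (adjusted p = 0.0693 and 0.169). Gclm, the modifier subunit of glutathione synthesis, was 1.46-fold lower (10.71 to 11.29 against 11.53 to 11.65; adjusted p = 0.00982), the direction opposite to Mgst1. Of 28 genes of gluconeogenesis and acid-base handling 2 were higher, the carbonic anhydrase gene Car4 (1.48-fold, adjusted p = 0.0411, with overlapping arrays) and the proton pump gene Atp6v0a4 (1.2-fold, adjusted p = 0.0485). Those calls were lost when any 1 of 11 or 10 arrays was dropped, with adjusted p up to 0.112 and 0.121. Without mutants 2 and 3 the list counted 5 higher, Car4 among them (adjusted p = 0.00353) and Atp6v0a4 not (0.114). Slc9a8, a sodium-proton exchanger, read 9.33, 9.61, 8.90 and 9.24 against 10.75, 10.40, 10.44 and 10.56, a 2.41-fold fall (adjusted p = 0.000315).

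Of 20 genes of plasma proteins known as liver products 3 were lower, Alb, Ttr and Apob, and none higher, at a median of -0.01 (2 higher without mutant 4). The share called lower over all genes was 1.46%. Alb, albumin, read 8.48, 8.37, 7.56 and 8.36 in mutants against 9.61, 10.19, 9.75 and 9.94 in heterozygotes (3.21-fold lower, adjusted p = 0.00121). Ttr, which carries thyroxine and retinol-binding protein, read 8.99, 8.56, 8.36 and 8.26 against 10.44, 10.51, 9.55 and 10.40 (3.2-fold lower, adjusted p = 0.00243). Apob, the lipoprotein backbone, was 1.54-fold lower (adjusted p = 0.0102). Alb was the only called member of 11 hepatocyte markers, whose mean ranged from 6.09 to 6.31 in mutants and from 6.29 to 6.45 in heterozygotes.

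Markers of nephron segments and other kidney cells were read as levels in bulk tissue, where fewer cells of a type and less RNA per cell cannot be told apart. Over all genes 1.46% were called lower and 1.07% higher. Of 12 markers of the S3 segment of the proximal tubule 4 fell and none rose, with a median of -0.40. These were Atp11a, a lipid flippase (1.45-fold, adjusted p = 0.00982), Acy3, an aminoacylase (1.46-fold, adjusted p = 0.0252; not called without heterozygote 1, 3 or 4, up to 0.0809), Slc22a13, a urate carrier (1.48-fold, adjusted p = 0.0327; not called without any 1 of 5 arrays, up to 0.0896), and Slc6a18. The list mean was 10.07 on mutant 3, 10.63 to 10.88 on the other mutants and 10.93 to 11.07 in heterozygotes, and the count was 1 without heterozygote 1, 3 or 4, 6 without mutant 1 and 4 without mutants 2 and 3. In the S1 and S2 segments 1 of 14 rose, the lactate transporter Slc5a12 (1.42-fold, adjusted p = 0.00961), and Cubn fell, at a median of 0.02.

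Of 11 distal convoluted and connecting tubule markers 4 fell and S100g rose (median -0.32), against 1.46% and 1.07% of all genes. Pvalb, parvalbumin, read 8.93, 8.26, 7.44 and 8.63 against 9.73, 9.31, 9.53 and 9.29 (2.22-fold lower, adjusted p = 0.0197; not called without heterozygote 1 or 3, up to 0.0671). Slc12a3, the thiazide-sensitive sodium chloride cotransporter, was 1.32-fold lower without overlap (12.43 to 12.80 against 12.93 to 13.10; adjusted p = 0.00982), and Sgms2 and Klhl3 were 1.26-fold and 1.25-fold lower (adjusted p = 0.0116 and 0.0121). The lower count was 3 without heterozygote 1 or 3, 6 without mutant 4 and 2 without mutants 2 and 3, when Slc12a3 had an adjusted p of 0.0534. Intercalated cells gave 2 of the steadiest falls: Slc26a4, the bicarbonate exchanger pendrin, read 8.72 on mutant 3 and 8.98 to 9.01 on the other mutants, against 9.69, 9.63, 9.61 and 9.51 in heterozygotes (1.6-fold lower, adjusted p = 0.000372), and Insrr, an alkali-sensing receptor kinase, was 1.56-fold lower (adjusted p = 0.00103). Aqp6, a water channel of the acid-secreting kind of these cells, was 1.24-fold higher (adjusted p = 0.0384; not called without any 1 of 8 arrays, up to 0.116), so the list did not move as a block (median -0.02).

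Beyond the tubule, 3 of 10 mesangial and smooth muscle markers fell, led by the integrin gene Itga8 (1.63-fold, adjusted p = 0.0163; 0.0565 without heterozygote 4) and Myh11 (1.25-fold, adjusted p = 0.0117; 0.0664 without mutants 2 and 3), with Tagln 1.24-fold lower (adjusted p = 0.0316; not called without any 1 of 7 arrays, up to 0.0961). The lower count was 1 without heterozygote 4 and 5 without mutant 2. For this and the next lists, 1.46% of all genes were called lower and 1.07% higher. Of 8 podocyte markers Podxl and the slit diaphragm gene Nphs1 fell, 1.25-fold and 1.21-fold (adjusted p = 0.0185 and 0.00982; Podxl not called without heterozygote 2 or 4, up to 0.067), and of 14 endothelial markers Ehd3 fell (1.34-fold, adjusted p = 0.0115; 0.0744 without mutants 2 and 3). Csf1r, the receptor that macrophages need, was the 1 member of 15 macrophage markers called, 1.59-fold lower (adjusted p = 0.0319; not called without any 1 of 5 arrays, up to 0.0926). The water channel gene Aqp3, the 1 called of 11 principal cell markers, was higher by 0.25 (adjusted p up to 0.106 without any 1 of 8 arrays). No marker of the thin limb, thick ascending limb, urothelium, adipocytes, skeletal muscle, pancreas, erythroid, T or B cells was called.

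**Figure D4:**
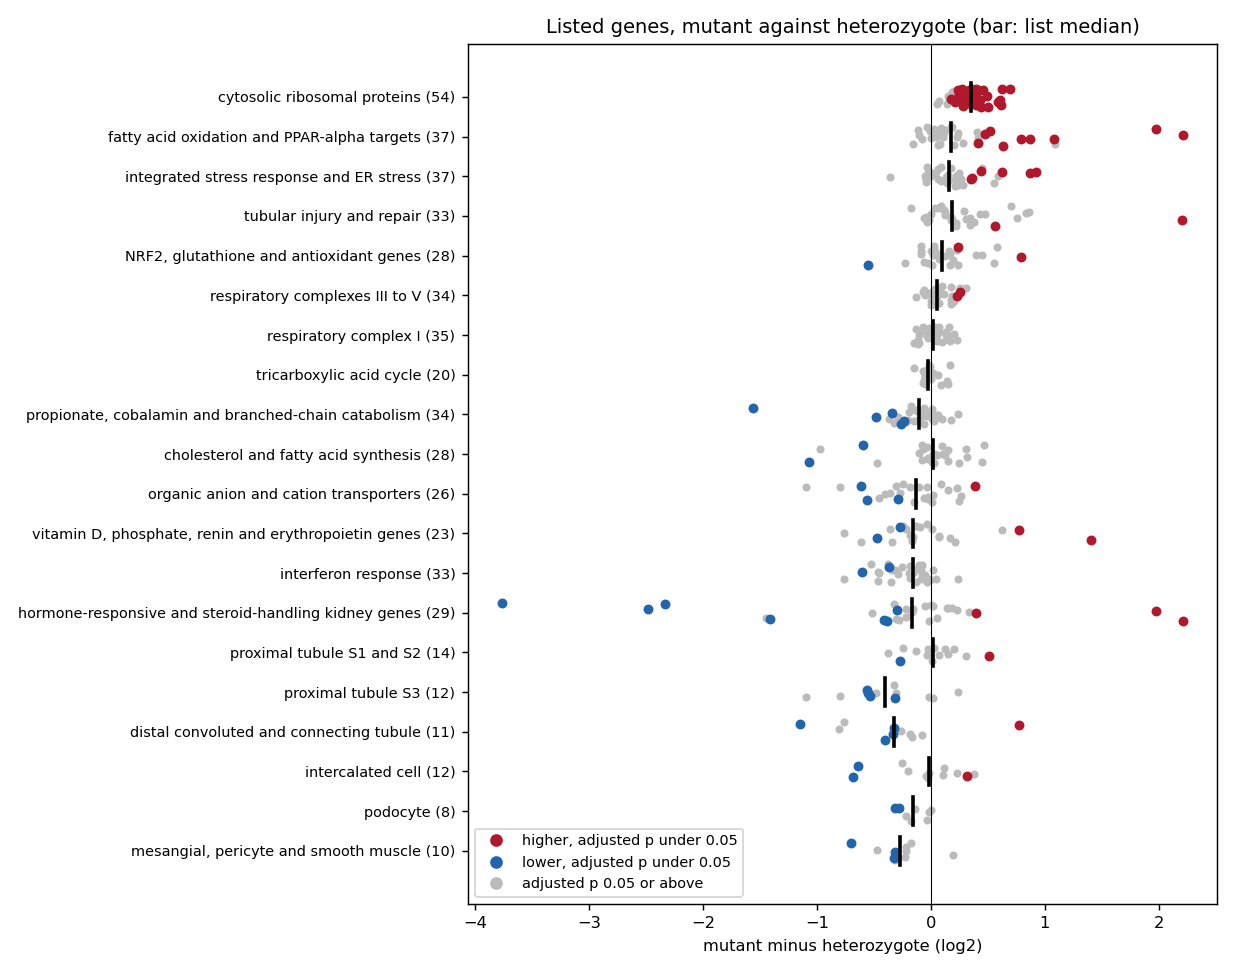
Each point is 1 listed gene, placed by its mutant minus heterozygote difference in log2, with the number of measured genes in brackets and the list median as a black bar. Red and blue points passed an adjusted p under 0.05; ribosomal protein genes lie wholly to the right of 0, with a median of 0.35, and S3 markers have a median of -0.40.

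Other genes with large changes belonged to no list. Aldh1a1, which makes retinoic acid, read 9.69, 10.09, 9.89 and 9.55 in mutants against 8.61, 8.74, 8.94 and 8.94 (2-fold higher, adjusted p = 0.00086). Rarres2, which encodes the adipokine chemerin, was 1.87-fold higher (10.28 to 10.90 against 9.19 to 9.91; adjusted p = 0.0067), and the glutamate receptor gene Gria3 1.93-fold (8.60 to 9.23 against 7.58 to 8.45; adjusted p = 0.00848; 0.0509 without mutants 2 and 3). Npy6r, a neuropeptide Y receptor gene, was 2.43-fold higher (6.04 to 7.49 against 5.28 to 5.71; adjusted p = 0.0163; 0.0502 without heterozygote 2). Falling genes included Dpt, the matrix protein dermatopontin (2.45-fold, 5.81 to 6.67 against 6.95 to 7.87; adjusted p = 0.00471), the complement gene C8a (2.03-fold, adjusted p = 0.0191; not called without heterozygote 1, 2 or 3, up to 0.0573) and Map3k7cl (1.98-fold, adjusted p = 0.0142). The gene model Gm6614, singled out after its values were seen, was 4.7-fold higher (7.21 to 8.52 against 5.37 to 5.86; adjusted p = 0.000315).

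The heterozygotes differed from wild type in some genes. The 27 genes that differed between heterozygotes and wild type were 13 higher and 14 lower in heterozygotes, a count that ran from 5 to 67 when single arrays were left out. Several of these genes were at one level in mutants and heterozygotes and at another in wild type. They are named after their values were seen. Some of the 27 share a chromosome other than 17, where Mmut lies. Fabp1, Nat8, Nat8f5, Npy and Ggct lie on chromosome 6, and Cysltr2, Phyhip, Rhobtb2, Sucla2 and Tnfrsf10b on chromosome 14. The part of the lost Mut allele in these differences was not tested. Klk1b22, a kallikrein-related protease gene, read 11.76, 11.16, 12.04 and 11.23 in mutants, 11.99, 11.89, 11.37 and 12.10 in heterozygotes, and 6.70, 6.83, 6.69 and 7.15 in wild type. Heterozygotes were 31.9-fold above wild type (adjusted p = 1.79e-08), whereas mutants and heterozygotes overlapped (log2 fold change -0.29, adjusted p = 0.554). Kallikrein genes are near-identical copies and probes may be shared among them. None of the 9 measured members of the kallikrein 1 family on the list was called between mutants and heterozygotes (median -0.25).

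Fabp1, the liver fatty acid-binding protein, read 9.81, 9.69, 9.52 and 9.35 in heterozygotes and 6.47 to 6.84 in wild type (7.79-fold, adjusted p = 0.0447). Mutants ranged from 8.01 to 11.30 around the heterozygote level (log2 fold change -0.16, adjusted p = 0.939). Nat8f5, of an N-acetyltransferase family, was 3.35-fold higher in heterozygotes than in wild type (adjusted p = 0.0248) and Npy, neuropeptide Y, 1.83-fold (adjusted p = 0.00248), again with mutants among the heterozygotes.

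Slc6a15, a transporter of branched-chain amino acids and proline, was highest in heterozygotes. It read 8.52, 8.28, 8.14 and 8.26 in mutants, 10.29, 9.72, 9.62 and 10.04 in heterozygotes and 8.74, 8.87, 9.22 and 8.91 in wild type. Mutants were 3.08-fold below heterozygotes (adjusted p = 0.000214), and heterozygotes were 1.98-fold above wild type (adjusted p = 0.021). Klk1b7-ps, a kallikrein pseudogene, was likewise 2.03-fold lower in mutants than in heterozygotes (adjusted p = 0.0146) and 3.19-fold higher in heterozygotes than in wild type (adjusted p = 0.00394). Alkal2, a ligand of receptor tyrosine kinases, gave 1.34-fold lower (adjusted p = 0.00243) and 1.26-fold higher (adjusted p = 0.048). Both contrasts use the same heterozygote arrays, so a high heterozygote level enters each. Some genes called between mutants and heterozygotes were not called between mutants and wild type. Besides S100g and Alkal2, they included Gstm2 (log2 fold change -0.03, limma adjusted p = 0.759) and Slc5a12 (0.22, adjusted p = 0.14). Slc6a18 (-0.15, adjusted p = 0.237) and Egr1 (-0.38, adjusted p = 0.125) were also among them.

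A few genes were lower at both steps, as Mmut was. Chrdl1, a BMP antagonist, read 6.52 to 6.77 in mutants, 7.18 to 7.48 in heterozygotes and 7.65 to 8.03 in wild type (mutant against heterozygote 1.61-fold lower, adjusted p = 0.00133; heterozygote against wild type 1.43-fold lower, adjusted p = 0.0392). Cyp4f14, a leukotriene hydroxylase, was 1.29-fold lower at each step (adjusted p = 0.00923 and 0.0456), and Phyhip 1.27-fold and 1.25-fold (adjusted p = 0.00607 and 0.0456). Cyp4f14 lies on chromosome 17, as Mmut does, and Phyhip on chromosome 14. The part of the lost Mut alleles in these falls was not tested. In the other direction Snord118, the U8 small nucleolar RNA that processes ribosomal RNA, read 8.64 to 9.24 in mutants, 7.25 to 7.94 in heterozygotes and 6.46 to 6.88 in wild type (2.37-fold and 1.92-fold higher, adjusted p = 0.00133 and 0.0392); it was singled out after its values were seen.

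**Figure D5:**
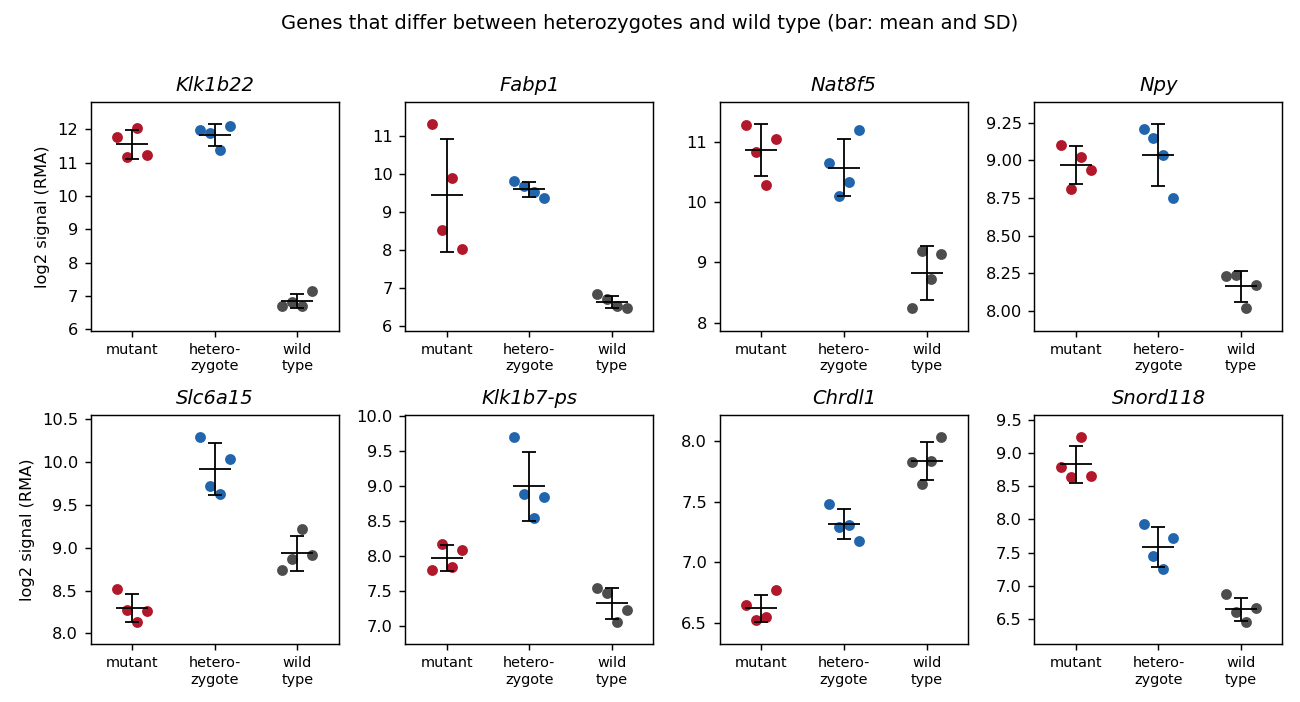
Points are the log2 signals of 8 genes on each of 12 arrays, with group means and SDs; panels have separate scales that do not start at 0. Klk1b22, Fabp1, Nat8f5 and Npy were higher in both mutants and heterozygotes than in wild type, with mutants and heterozygotes overlapping and Fabp1 widely spread in mutants, Slc6a15 and Klk1b7-ps were highest in heterozygotes, and Chrdl1 and Snord118 stepped across the 3 groups.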

How the data were processed

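Total RNA of 12 whole kidneys was read on mouse gene arrays (MoGene type in the sample descriptions; the labelling text names a human array). The deposited values are log2 signals for 35552 probe sets without missing values, made by the authors: the submitters' processing notes name RMA and Affymetrix Expression Console 1.2.1. Such summaries compress large folds, and arrays give no read depth, so their number limits precision. Array medians lay between 7.17 and 7.23. Of the probe sets 21785 had 1 gene symbol, 1621 several, and 12146 were not listed; for each of 19934 genes the one with the highest mean over 12 arrays was kept. limma 3.58.1 (lmFit, eBayes, R 4.3.3) was fitted to 3 groups of 4, with Benjamini-Hochberg adjustment over all genes and an adjusted p under 0.05 as a call. The fit was tested on simulated data in which the 3 groups shared a single spread per gene, so unequal spreads were not tested. No filter on level was set. Mmut, Lcn2 and Havcr1 were also given exact permutation tests.

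Named genes are the 15 largest rises and falls among called genes whose arrays do not overlap and whose higher mean is at least 6, up to 4 called members of each list (or the one with the smallest p), up to 5 genes per direction also called between heterozygotes and wild type, and Mmut, Lcn2 and Havcr1. Gene models, small RNAs and receptor families were counted, not named, save where stated. Other genes named (further list members, neighbours of Mmut, ribosomal proteins) were chosen after their values were seen, and single arrays were left out for the named genes and the list counts only. The comparison, 24 pathway lists and 21 marker lists were chosen with earlier results of these data known; 3 more families were added after values were seen. Sequences are RefSeq's (GRCm38.p6); no source used here gives the probe sets' build, so gene positions are not printed. Alternatives were a replicate block, leaving out arrays, 8 arrays only, a level filter, other probe set rules, array weights, a trended robust prior, other scalings and a 1.5-fold threshold. Same-numbered mutants and heterozygotes did not deviate together (correlations 0.07, -0.01, -0.13 and 0.03), so numbers were not taken as pairs.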

Additional observations from a re-analysis of the deposited data

Results flagged for a closer look

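Among 98 named genes, each tested in mutants and in heterozygotes (196 groups of 4), 9 groups had 1 array far from the other 3; chance flags about 1 in 20 groups. On mutant 3, Alb read 7.56 (8.36 to 8.49 on the other mutants), Slc22a13 10.54 (11.21 to 11.28), Gbp3 7.41 (7.78 to 7.83), Slc26a4 8.72 (8.98 to 9.01) and Klk1b11, a kallikrein gene that was not called, 6.3 (5.82 to 5.86). Of these genes Alb and Slc26a4 were called without any 1 array. On other arrays, Dpt read 6.67 on mutant 4 (5.81 to 5.95), the ribonucleotide reductase gene Rrm1 8.38 on mutant 1 (8.27 to 8.29), Myc 7.57 on heterozygote 3 (7.35 to 7.38) and Ttr 9.55 on heterozygote 3 (10.4 to 10.51).

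Among 13767 probe sets without a single gene symbol, which the gene-level results leave out, 395 differed between mutants and heterozygotes (limma, adjusted p under 0.05 over all probe sets), 333 higher and 62 lower in mutants. Of these 237 are among the 1621 probe sets that list several symbols, and 158 among the 12146 not in the annotation used here. Over all genes 506 of 19934 were called (2.54%).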

How the results depend on the processing

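No named gene changed direction under these settings. The balance of calls did: against 214 higher and 292 lower, higher genes were the more numerous without heterozygote 1, with 8 arrays only, without mutants 2 and 3, with centred arrays and with every probe set. Without single arrays, the genes called between mutants and heterozygotes ran from 229 to 592, those higher from 109 to 245 and those lower from 114 to 347; those between heterozygotes and wild type ran from 5 (without wild type 4) to 67 (without wild type 1). Fitting the 8 arrays alone gave 191 (100 higher, 91 lower), and 47 named genes then lost their call. The 98 named genes include some that were never called, such as Havcr1 and Sucla2, so fewer than 98 had a call to lose. That fit has fewer arrays to estimate the spread and leaves out the wild type, whose spread can differ from that of mutants. For Kap the SD was 0.94 in mutants, 0.17 in heterozygotes and 0.03 in wild type, and for Ivd 0.03, 0.11 and 0.05. Why the calls were lost was not tested. Requiring 1.5-fold gave 99 (47 and 52), and 13 between heterozygotes and wild type. Every probe set gave 405 higher and 350 lower. Without mutants 2 and 3, an alternative chosen after seeing the data, 183 were higher and 173 lower, 84 differed between heterozygotes and wild type, and 23 named genes lost their call. With a replicate block 405 genes were called between mutants and heterozygotes, and 7 between heterozygotes and wild type; array weights gave 163 of the latter and a trended robust prior 42; the cause was not tested. The log2 fold change of Lcn2 ran from 1.82 to 2.81 without single arrays, stayed 2.21 but uncalled with 8 arrays (adjusted p = 0.123) or the trended robust prior (0.0898), and was 1.06 without mutants 2 and 3. Centring arrays on the median gave 404 calls (205 higher and 199 lower, 50.7% higher) and quantile normalization 668 (36.4% higher), against 42.3% in the result given.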
